A study of Homo sapiens with 31 samples.

Results

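The 10 BCL2 family genes described here were taken by name from the table of TMD8 cells that carried wild-type RHOA or the RHOA p.R5W change: BCL2, BCL2L1, MCL1, BCL2L11, BBC3, PMAIP1, BMF, HRK, BAX and BAK1. All 10 were found among the 25073 rows of that table, and all 10 were among the 13698 genes that passed the filter on low values. TMD8 is an established lymphoma cell line of the ABC DLBCL type (diffuse large B-cell lymphoma resembling activated B cells). The table held 4 of the series' 31 RNA sequencing libraries, 2 labelled WT and 2 labelled RHOA p.R5W (R5W below), and both genotypes had been kept overnight in 50 nM copanlisib, an inhibitor of PI3K. Both groups thus received the inhibitor, and the comparison gives the difference between genotypes under copanlisib, not a response to it. The submitters call the R5W cells KI (knock-in). Whether they were 1 clone or a pool, and whether replicates were separate cultures, is not given in the sources used here, so p-values measure the spread between these libraries, which may be technical.

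BCL2 family proteins decide whether the outer mitochondrial membrane stays closed. The effectors BAX and BAK1 open pores in it and release cytochrome c, anti-apoptotic members such as BCL2, BCL-XL (from BCL2L1) and MCL1 hold the effectors and their activators back, and BH3-only proteins such as BIM (from BCL2L11), PUMA (BBC3), NOXA (PMAIP1), BMF and HRK carry stress signals to them. PI3K and AKT signalling restrains several BH3-only genes through the FOXO transcription factors, and BCL2 and MCL1 are survival factors of B cells and B-cell lymphomas.

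Of the 10 genes, 5 were lower in R5W than in WT (MCL1, BCL2L11, BBC3, BMF and HRK), 2 were higher (BCL2L1 and PMAIP1) and 3 did not pass the test (BCL2, BAX and BAK1) at an adjusted p under 0.05 in limma. All 5 BH3-only genes among the 10 passed, 4 of them lower. Differences ran from -1.32 for HRK to 0.57 for BCL2L1 and PMAIP1 on the log2 scale, with a median of -0.229 over the 10, against 0.011 over all tested genes. The same test called 25% of all tested genes, 13.1% higher and 11.9% lower. The 2 groups did not overlap in 7 of the 10 genes, against 62.9% of all tested genes, so the absence of overlap alone was common in this table. With 2 libraries against 2, an exact two-sided permutation test of a single gene cannot go below p = 0.333, and the calls rest on limma's estimate of the spread from all genes. In bulk RNA, fewer cells of a type and less RNA per cell cannot be told apart.

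**Figure D1:**
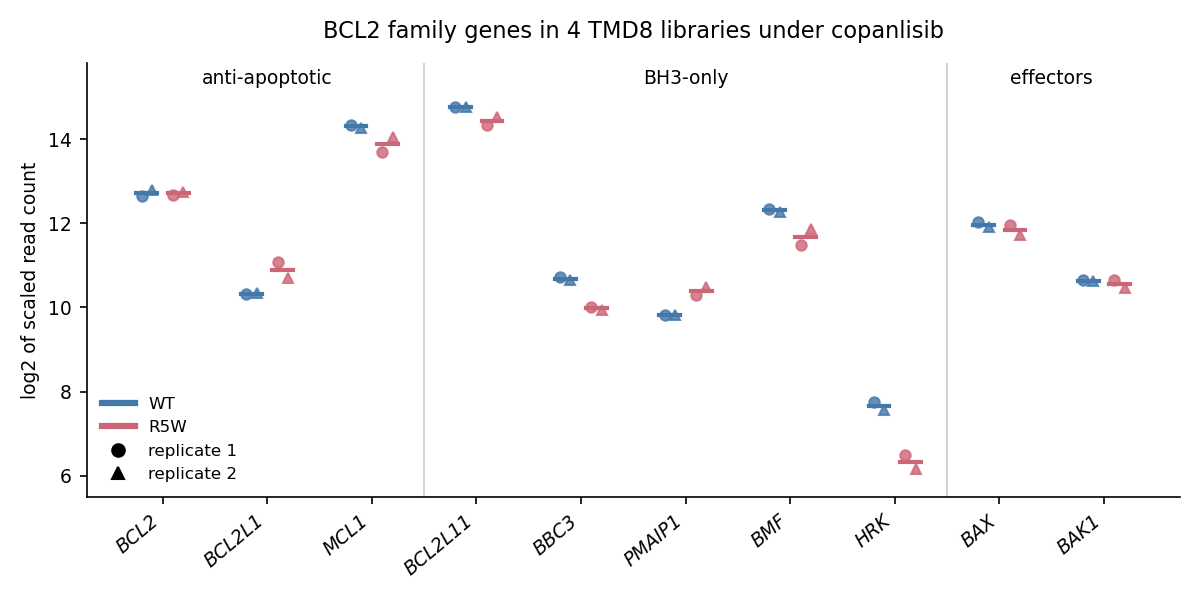
Log2 of the scaled read count (y axis) of each BCL2 family gene (x axis) in the WT libraries (blue) and R5W libraries (red) under copanlisib; circles are replicate 1, triangles replicate 2, and bars the mean of the 2 log2 values. HRK is the lowest gene and is lower in both R5W libraries, while BCL2 lies at the same height in the 4 libraries.

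The libraries held 19458941 to 21956572 recovered reads. RHOA itself, the changed gene, had log2 values of 13.826 and 13.704 in WT against 13.655 and 13.731 in R5W, a difference of -0.07 (SE 0.0747, adjusted p = 0.531), which checks its expression but not the altered codon. All 8 listed B-cell markers were tested and together held 133449 and 141676 reads in WT and 127516 and 131267 in R5W. Of these, MS4A1 (-0.66, adjusted p = 0.000149) and CD79B (-0.29, adjusted p = 0.00897) were among 5 that were lower in R5W, and IRF4 was higher (0.91, adjusted p = 1.46e-06). MS4A1 went from 48275 and 45482 reads in WT to 26432 and 29820 in R5W. IRF4 went from 28329 and 27100 reads in WT to 50151 and 48042 in R5W. These opposite changes offset each other in the sum of the list. Of the T-cell markers, 3 of 5, including CD3D and CD3G, held no read in any library, and the list summed to 82 and 83 reads in WT and 39 and 44 in R5W, nearly all from CD8A (-0.88, adjusted p = 0.0108). Of the myeloid markers, 4 of 6 held no read and the list summed to 5 to 13 reads. The 7 epithelial and stromal markers, with EPCAM and KRT19 at 0, summed to 283 and 291 reads in WT and 613 and 676 in R5W. KRT8 (1.78, adjusted p = 7.69e-06) and COL1A1 (1.33, adjusted p = 5.46e-05) were the members of that list that rose. The calls of CD79B and CD8A were lost without WT replicate 1 or 2. The part of these markers in the differences below was not tested.

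Among the anti-apoptotic genes, BCL2L1 was higher in R5W, MCL1 was lower and BCL2 did not pass the test. BCL2L1 encodes BCL-XL, which binds BAX, BAK1 and BH3-only proteins. Its log2 values were 10.316 and 10.337 in WT against 11.09 and 10.71 in R5W. Both R5W libraries lay above both WT libraries, and the R5W libraries were further apart than the WT libraries. The difference was 0.57 (SE 0.112, adjusted p = 0.0027), or 1.49 times the WT level. A gene-level value cannot separate the long, anti-apoptotic transcript of BCL2L1 from its short, pro-apoptotic splice form.

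MCL1 encodes a short-lived survival protein that many B-cell lymphomas rely on. It had log2 values of 14.339 and 14.26 in WT against 13.701 and 14.039 in R5W. Both R5W libraries were lower than both WT libraries, by -0.43 (SE 0.0986, adjusted p = 0.00788) or to 74.3% of the WT level. BCL2, the founding member of the family, had log2 values of 12.652 and 12.788 in WT against 12.678 and 12.745 in R5W. The R5W values lay inside the WT range, and the difference was -0.01 (adjusted p = 0.952), with a 95% interval from -0.17 to 0.16. The calls of BCL2L1 and MCL1 did not hold in every setting: BCL2L1 had an adjusted p of 0.0504 without WT replicate 1, and MCL1 0.119 without WT replicate 1 and 0.0554 without WT replicate 2. Over the 13 alternative settings the highest adjusted p was 0.108 for BCL2L1 and 0.15 for MCL1, both from limma without its mean-variance trend. Without R5W replicate 1, MCL1 was at -0.26.

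The largest differences among the members were those of HRK, BBC3 and BMF, all BH3-only genes. Of the 5 BH3-only genes among the members, 4 were lower in R5W. Stretches upstream of BBC3, HRK and BCL2L11 are printed as examples from the 4 that fell, and that of BMF, the other one, is not shown. They are RefSeq sequence of GRCh38.p14, 5′ to 3′ on the strand of the gene, and begin 250 bases before the RefSeq start. The BBC3 stretch ends before the earliest GENCODE v29 transcript start of the gene in that window. Those of HRK and BCL2L11 are the full 250 bases, in which no such start lies. Capitals mark an E-box in BBC3 and a FOXO motif in BCL2L11, and GC boxes, such as those in HRK, are left in lower case. The positions are chr19:47232767-47232917 (minus strand), chr12:116881442-116881691 (minus strand) and chr2:111120664-111120913 (plus strand). The set of RefSeq windows used here held none for MCL1.
BBC3: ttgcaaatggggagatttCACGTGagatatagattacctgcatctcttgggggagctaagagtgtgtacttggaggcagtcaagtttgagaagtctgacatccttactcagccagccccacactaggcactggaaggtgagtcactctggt
HRK: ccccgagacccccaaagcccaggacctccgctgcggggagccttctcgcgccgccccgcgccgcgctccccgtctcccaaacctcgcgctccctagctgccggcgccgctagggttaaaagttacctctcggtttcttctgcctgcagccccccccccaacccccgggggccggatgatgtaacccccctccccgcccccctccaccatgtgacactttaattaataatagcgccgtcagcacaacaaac
BCL2L11: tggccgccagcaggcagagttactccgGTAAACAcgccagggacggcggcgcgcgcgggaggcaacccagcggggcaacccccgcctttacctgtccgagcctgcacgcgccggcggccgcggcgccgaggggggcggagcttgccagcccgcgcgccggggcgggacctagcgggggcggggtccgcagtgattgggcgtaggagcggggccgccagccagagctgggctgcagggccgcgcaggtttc

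BBC3 encodes PUMA, a BH3-only protein that FOXO factors induce. Its log2 values were 10.712 and 10.654 in WT against 10.01 and 9.941 in R5W. Replicates lay close together in each genotype and the genotypes did not overlap. On the log2 scale BBC3 fell by 0.71 (SE 0.0868, adjusted p = 8.07e-05), to 61.3% of WT. It had the largest moderated t of the 10 genes (-8.15), and its call held in all 13 alternative settings, with differences from -0.74 to -0.67.

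HRK encodes Harakiri, a BH3-only protein best known from neurons that binds BCL2 and BCL-XL. It was the gene with the fewest reads of the 10, with 183 and 153 reads in WT and 73 and 54 in R5W. Its log2 values were 7.746 and 7.559 in WT against 6.487 and 6.155 in R5W. Both R5W libraries were below both WT libraries, and HRK fell by 1.32 (SE 0.19, adjusted p = 0.000293), to 40% of WT. This call too held in all 13 settings, with differences from -1.49 to -1.16.

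BMF, a BH3-only protein kept on the cytoskeleton by a dynein light chain until stress frees it, had log2 values of 12.342 and 12.268 in WT against 11.492 and 11.868 in R5W. The R5W libraries differed from each other but both were lower than WT. BMF fell by 0.62 (SE 0.108, adjusted p = 0.00152), to 64.8% of WT. BCL2L11 encodes BIM, which binds all anti-apoptotic members and can activate BAX directly. It had log2 values of 14.749 and 14.762 in WT against 14.327 and 14.514 in R5W, with no overlap. Its difference of -0.33 (SE 0.0772, adjusted p = 0.00676) was the smallest among the 7 genes that passed, and left 79.3% of the WT level. The BCL2L11 call was lost without WT replicate 1 (-0.34) and without WT replicate 2 (-0.33). It was also lost in limma without its mean-variance trend (adjusted p = 0.131).

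PMAIP1 went the other way from the other BH3-only genes among the members. It encodes NOXA, which binds MCL1 and promotes its breakdown and which ATF4 induces. Its log2 values were 9.811 and 9.822 in WT against 10.297 and 10.473 in R5W. Both R5W libraries were higher than both WT libraries, and PMAIP1 rose by 0.57 (SE 0.0943, adjusted p = 0.000804), to 1.48 times WT.

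Neither effector passed the test. BAX had log2 values of 12.017 and 11.904 in WT against 11.963 and 11.71 in R5W, and the groups overlapped. The difference was -0.12 (SE 0.0916, adjusted p = 0.36), with a 95% interval from -0.32 to 0.07. Without R5W replicate 1 it was -0.25 (adjusted p = 0.00118), and without R5W replicate 2 it was 0.002 (adjusted p = 0.982), the ends of its range over the 13 alternatives, so the R5W library that remained decided the call. BAK1 had log2 values of 10.643 and 10.62 in WT against 10.651 and 10.466 in R5W. These also overlapped, at -0.07 (SE 0.0898, adjusted p = 0.605), with an interval from -0.27 to 0.12. The intervals leave room for small differences in either effector.

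The BAX window is printed because it held the most E-boxes of the 11 windows of the 9 member genes. It is chr19:48954625-48954814 on the plus strand of GRCh38.p14 and ends before the earliest annotated start. The window of 250 bases held 4 matches to CACGTG, and 2 of them lie in the printed stretch, in capitals.
BAX: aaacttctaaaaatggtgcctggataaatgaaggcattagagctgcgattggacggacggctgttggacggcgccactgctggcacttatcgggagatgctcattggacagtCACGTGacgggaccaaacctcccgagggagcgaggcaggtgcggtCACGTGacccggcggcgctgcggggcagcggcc

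The 250 bases before each start were searched on both strands for motifs, of which those reported here are the FOXO (TGTTTAC), E-box (CACGTG), CRE (TGACGTCA), E2F (TTTGGCGC), ATF4-CHOP (TGATGCAA) and GC box (GGGCGG) letters and the NF-kB motif by its consensus of 10 letters. NF-kB matches may overlap GC boxes. BBC3 and BAX were the genes with an E-box, which 6.34% of 35116 RefSeq windows held. BCL2L11 was the gene with a FOXO match, 223 to 217 bases before the start, against 2.98% of windows. BMF held an NF-kB match in 1 of its windows (9.96% of windows). No member window held the CRE, E2F or ATF4-CHOP letters, which 1.65%, 0.55% and 0.772% of windows held. GC boxes were present for 6 of the 9 genes and in 42.6% of windows. These matches describe letters in the windows, and nothing in the data measured binding there.

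**Figure D2:**
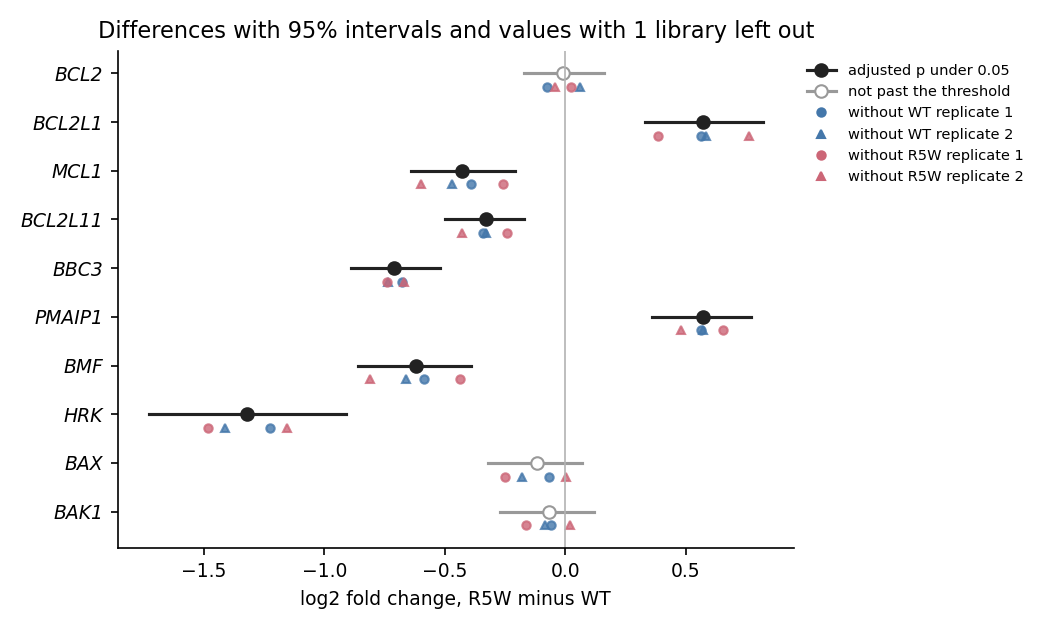
Log2 fold change of R5W minus WT (x axis) for the 10 genes, with 95% intervals from limma; filled points passed an adjusted p of 0.05 and open points did not. The small coloured points give the fold change with 1 library left out, and for BCL2L1, MCL1, BMF and HRK the points without an R5W library spread the most.

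The R5W libraries differed more from each other than the WT libraries did. The gap between replicates was larger in R5W in 9 of the 10 genes, BCL2 being the exception, and over all tested genes the median gap was 0.154 in R5W and 0.092 in WT on the log2 scale. The R5W library that lay farther from WT was not always the same. Among the 7 genes that passed, it was replicate 1 for BCL2L1, MCL1, BCL2L11 and BMF and replicate 2 for BBC3, PMAIP1 and HRK. Without R5W replicate 1 or 2 the 7 genes kept their direction, and more of all tested genes were called than in the reported fit. Fewer of all tested genes were called without a WT library. Without WT replicate 1, BBC3, BMF, HRK and PMAIP1 remained called, and without WT replicate 2 these 4 and BCL2L1. When limma was run without its mean-variance trend, BBC3 and HRK remained.

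Levels were set side by side as scaled reads per kb of the RefSeq transcript that the table names for each gene. The order between genes depends on that length, and lengths of other transcripts were not tried. In WT the order from high to low was BCL2L11, MCL1, BAX, BMF, BCL2, BBC3, BAK1, BCL2L1, PMAIP1 and HRK, with means per kb of 5420, 5040, 4360, 1080, 1040, 889, 721, 501, 464 and 287. The 2 WT libraries kept neighbours in this order apart except for BMF and BCL2, whose ranges overlapped. In R5W, BCL2L11 (4300 per kb), BAX (4020) and MCL1 (3760) were again the 3 highest, but their ranges overlapped. BCL2 followed at 1030. BCL2L1 (751), BMF (705), PMAIP1 (690) and BAK1 (687) formed a run of overlapping ranges, followed by BBC3 (545) and HRK (114).

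**Figure D3:**
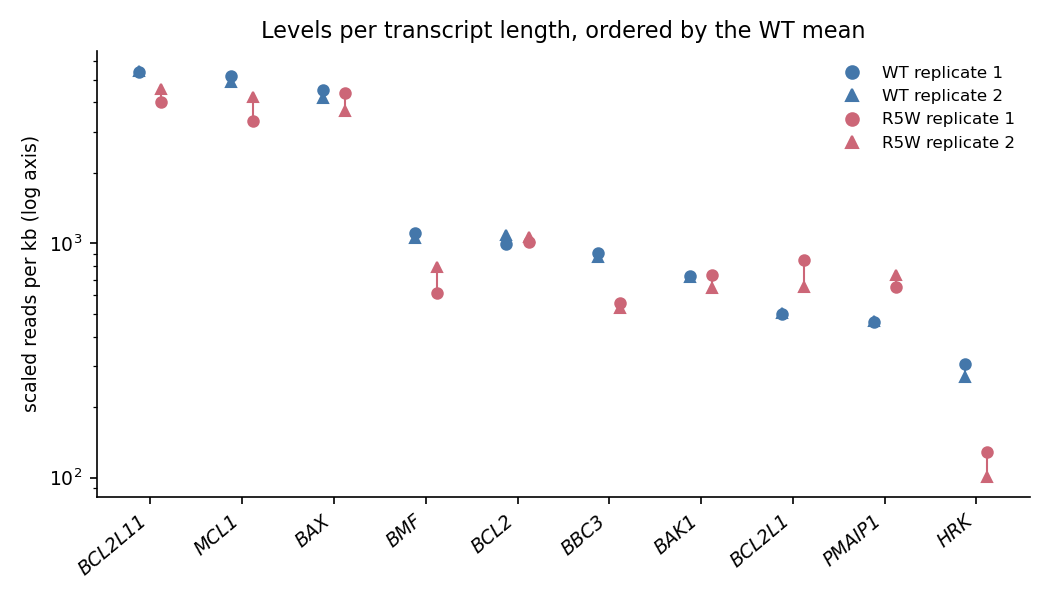
Scaled reads per kb of transcript (log y axis) for the 10 genes (x axis, ordered by the WT mean); circles are replicate 1 and triangles replicate 2, WT in blue and R5W in red, each pair joined by a line. BCL2L11, MCL1 and BAX lie between 3320 and 5440 per kb in all 4 libraries, and HRK between 101 and 305.

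Among 13 other BCL2 family genes, 11 were tested, of which 1 was higher, 1 lower and 9 did not pass. The same test called 25% of all tested genes, so calls were no more frequent in this list. BIK, a BH3-only gene, had log2 values of 6.207 and 6.233 in WT against 4.689 and 5.685 in R5W and fell by 1.01 (adjusted p = 0.032). Its call was lost without R5W replicate 1 (-0.53), without WT replicate 1 (-1.02) and without WT replicate 2 (-0.998). BCL2L12 rose by 0.31 (adjusted p = 0.017), a call lost without WT replicate 1 (0.27) or 2 (0.34). BCL2A1, an anti-apoptotic gene that NF-kB induces, was at 0.13 (adjusted p = 0.226), although its R5W values of 11.503 and 11.544 lay above its WT values of 11.374 and 11.403. BID and BAD, which are also BH3-only genes, were at 0.08 and -0.10 and did not pass. BCL2L2 was at -0.08 and did not pass either.

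Downstream of the mitochondrion, the 9 genes of the apoptosome and mitochondrial release had 3 members that rose and 1 that fell. Over all tested genes 25% were called, 13.1% higher and 11.9% lower. None of the lists in this paragraph was tested against that share. The cytochrome c gene CYCS rose by 0.29 (adjusted p = 0.00969), and the channel genes VDAC1 and VDAC2 of the outer membrane rose by 0.37 and 0.28 (adjusted p = 0.00338 and 0.0227). CASP9, the initiator caspase of the apoptosome, fell by 0.30 (adjusted p = 0.0483). Among 6 other caspases CASP10 fell by 0.56 (adjusted p = 0.0141) and the other 5 did not pass. Among 6 inhibitors of apoptosis, NAIP fell by 1.13 (adjusted p = 0.00601) and XIAP, which blocks caspases, by 0.29 (adjusted p = 0.0262). Of 7 death receptor pathway genes tested, CFLAR, which encodes the caspase-8 inhibitor FLIP, rose by 0.37 (adjusted p = 0.0034) and RIPK1 fell by 0.46 (adjusted p = 0.00344). All of these calls were lost without WT replicate 1 and, with the exception of NAIP, without WT replicate 2. CASP9 was also lost without R5W replicate 2 (-0.23). Without R5W replicate 1, NAIP was at -0.75 and CASP10 at -0.32.

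Regulators of the family were read from 2 lists. Of 12 transcription factors known to act on family genes 3 rose and 9 did not pass; over all tested genes 25% were called in either direction and 13.1% were higher, so the share called was that of the background. MYC, a transcription factor of growth that can also prime cells for apoptosis, rose by 1.13 (adjusted p = 8.14e-07), from log2 values of 11.382 and 11.339 to 12.496 and 12.486. E2F1, which drives S phase genes and can induce BH3-only genes, rose by 0.76 (adjusted p = 0.000122), and ATF4, a stress factor that can induce PMAIP1, by 0.26 (adjusted p = 0.0238). The ATF4 call was lost without WT replicate 1 or 2. FOXO1 and FOXO3 were at -0.11 and -0.15 and did not pass. Of 8 genes for turnover and anchoring of family proteins, YWHAZ, a 14-3-3 protein, fell by 0.23 (adjusted p = 0.0407), a call lost without WT replicate 1 or 2 and, at -0.15, without R5W replicate 1. HUWE1 and USP9X, which add and remove ubiquitin on MCL1, were at 0.15 and -0.13, and DYNLL2, which anchors BMF, at 0.06. Without the mean-variance trend, MYC (adjusted p = 0.025) was the only called gene of these regulator and apoptosis lists, the 10 members apart, that still passed, and E2F1 had an adjusted p of 0.0588.

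**Figure D4:**
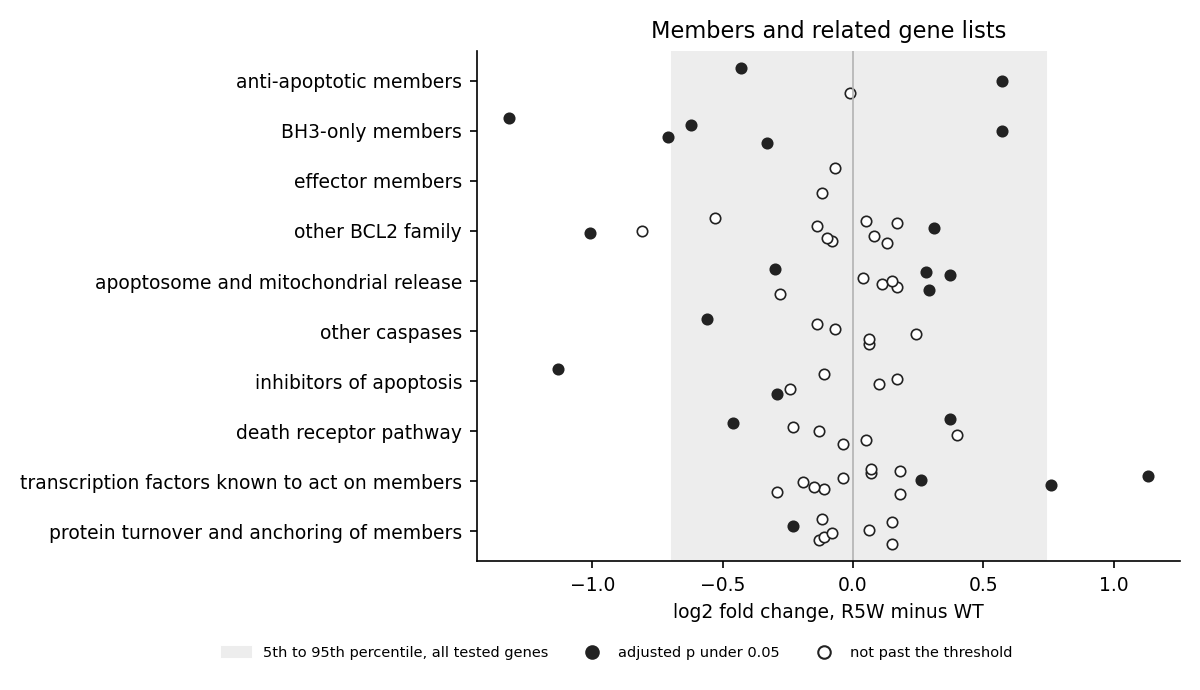
Log2 fold change of R5W minus WT (x axis) for tested genes of the 10 members by role and of the related lists (y axis); filled points passed an adjusted p of 0.05, and the grey band spans the 5th to 95th percentile of all tested genes, -0.69 to 0.74. HRK and BBC3 lie below the band, as do BIK, NAIP and the uncalled BOK, and MYC and E2F1 lie above it.

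The genes whose pattern over the 4 libraries was nearest to BBC3, by Euclidean distance of log2 values centred on each gene's mean, were KCTD17 (distance 0.031), CTSB (0.033) and PTPLAD2 (0.046). Their differences were -0.71, -0.67 and -0.75. CTSB encodes the lysosomal protease cathepsin B. With 4 libraries in 2 groups such likeness reflects little more than an equal difference between genotypes.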

How the data were processed

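Per the labels' protocols, stranded mRNA libraries of the 4 copanlisib samples were made at 1 facility and sequenced paired-end. The submitters' processing notes name STAR, RSEM, Picard, cutadapt and bcl2fastq and the builds GRCh37 and hg19, with no versions and without saying which tool served which table. The table as deposited by the authors holds log2 values in 25073 gene rows. Undoing the logarithm and dividing by the smallest value above 0 of a library (1.173 to 1.32) gave whole numbers within 0.1 for 100% of values up to 200 reads, so the authors had scaled whole read counts by 1 factor per library and taken log2, with 0 for no read. Recovered reads of abundant genes are approximate, because values are rounded, and depths bound counting error only.

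Drug-treated libraries were not used. The genotypes were compared in limma 3.58.1 (R 4.3.3; trend and robust) on log2 of the linear value plus a pseudocount of 1, for genes at 10 or more in at least 2 libraries. P-values were adjusted by Benjamini-Hochberg over all tested genes. Replicates differed beyond sampling noise (chi-square per degree of freedom 3.68 in WT and 11.38 in R5W), so none was merged. The fit was tested on simulated data with equal spread in both genotypes, so that test does not cover the larger spread between R5W libraries. The members and gene lists were chosen with earlier results of these data known. The genes named outside the members were those past the threshold, at most 4 per list by size of change, the 3 nearest in pattern to the member with the largest moderated t, and RHOA; list members named beside them with no call were picked after their values were seen. Some results of the lists are not reported here. Alternatives were another pseudocount, filter, scaling or variance model, voom on recovered reads, a replicate block and leaving out each library.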

Additional observations from a re-analysis of the deposited data

How the results depend on the processing

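Among the 10 members, 7 passed in the reported fit, and 7 also passed with a pseudocount of 0.1 or 10, with no filter, with a mean value of 50 or more, with median-of-ratios scaling, without robust moderation, with voom and with the replicate block. Without the mean-variance trend 2 members and 857 genes passed, against 3428 genes in the reported fit; the cause was not tested. Leaving out 1 library gave 4 to 8 members and 1024 to 5668 genes, the lowest counts without WT replicate 1 and the highest number of genes without R5W replicate 2. Without a library, the lone one of its genotype is assumed to vary like the other genotype. The replicate block gave 3713 genes and changed no call of a member. The labels do not say that a number marks a shared culture or day, and the differences between replicates 1 and 2 in WT and in R5W correlated at -0.061 across genes, so the numbers were not taken as pairs. No member that passed changed direction in any of the 13 settings. BCL2, BAX and BAK1 did change sign in some, without passing. CASP9 also failed with no filter on low values (adjusted p = 0.0531), and CASP9 and YWHAZ without robust moderation (adjusted p = 0.0515 and 0.0512). Depth limits HRK most, with 54 to 183 reads per library.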

Other observations

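Summed per kb of transcript, the 5 BH3-only members gave 8180 and 8100 scaled reads in WT and 5970 and 6740 in R5W, of which BCL2L11 made up 66% and 67.2% in WT and 67.4% and 68% in R5W. The 3 anti-apoptotic members gave 6660 and 6490 in WT and 5180 and 5910 in R5W, and the share of MCL1 in them was 77.7% and 75.5% in WT and 64.1% and 71.1% in R5W. The effectors BAX and BAK1 gave 5260 and 4910 in WT and 5100 and 4310 in R5W. The sums of the BH3-only and anti-apoptotic members did not overlap between genotypes, and those of the effectors did. Of all tested genes, 62.9% did not overlap either. Family genes outside the member list are left out of the sums. Among them are the anti-apoptotic BCL2A1 (mean per kb 2830 in WT and 3100 in R5W) and the BH3-only BID (1170 and 1240) and BAD (530 and 494). The sums depend on the transcript length taken for each gene and are a description of RNA levels with no test.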
